A study of Mus musculus with 18 samples.

Results

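The 10 transcription factor genes studied here direct the first extraembryonic lineages of the mouse embryo, and they were followed from fibroblasts to reprogrammed cells. They are Gata4, Gata6, Sox17 and Sox7 of the extraembryonic endoderm and Cdx2, Tfap2c, Gata2, Gata3, Elf5 and Hand1 of the trophoblast. The genes were taken by symbol, and all 10 were measured among 19937 genes, each by 1 probe set. The 18 arrays fall into 6 groups of 3. One group is fibroblasts from CD1 mouse embryos (MEFs), and 3 groups are induced pluripotent stem (iPS) lines given neither a MEK nor a GSK inhibitor. The iPS lines were made from such fibroblasts with pMX retroviruses for Oct4, Klf4 and Sox2: EOS3F-24, labelled partial, and EOS3F-28 and EOS3F-29, labelled full. The fifth group is EOS3F-24 after conversion in 2i, in which LIF-supplemented medium held a MEK inhibitor at 2 μM and a GSK inhibitor at 12 μM, neither named in the labels. The sixth is the embryonic stem (ES) cell line J1. ES and iPS cells shared feeders and LIF, the iPS lines also had puromycin at 1 μg/mL, and for MEFs the labels name neither feeders nor LIF. Partial reprogramming, and its 2i conversion, is represented by 1 line, and the duration of the 2i treatment is not stated in the labels.

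In the early embryo the outer cells become trophectoderm, the source of the placenta, under Cdx2, Gata3, Tfap2c and Elf5, while the inner cells divide into pluripotent epiblast, marked by Nanog, and primitive endoderm, marked by Gata6 and then Sox17, Gata4 and Sox7. FGF signalling through MEK and ERK pushes inner cells toward Gata6 and primitive endoderm, and Oct4 holds Cdx2 down in ES cells. Several of these factors also act elsewhere: Gata3 and Tfap2c in skin epithelium, Cdx2 in the intestine, Gata2 in blood, Gata4, Gata6 and Hand1 in the heart, and Sox7 and Sox17 in vessels.

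Levels are the deposited log2 values of the arrays, a difference is given in log2 units with its SE, and a gene is called when its adjusted p from limma is under 0.05. The labels do not say whether replicates were separate cultures, so p-values measure only the spread between arrays, which may be technical. Array medians lay between 3.92 and 4.11, and replicate arrays correlated at 0.971 to 0.987. No detection calls were used, and 1027 olfactory receptor genes, a family with little place in these cells, had 95th percentiles of 3.58 to 3.76 per array, a rough guide to dim signal because probe sets differ in brightness. The groups matched their labels in the main: all 18 listed pluripotency genes were higher in full lines and in J1 cells than in MEFs, 12 of 18 were higher in the partial line and 1 was lower, and 20 of 24 fibroblast genes were lower and 1, the proteoglycan gene Dcn, higher in the partial line than in MEFs. In a bulk sample, fewer cells of a kind and less RNA per cell cannot be told apart.

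Gata6, the zinc finger factor that starts primitive endoderm, was the endoderm regulator that stood out in the partial line. Its 3 EOS3F-24 arrays read 5.26, 5.46 and 5.61, while MEFs read 4.76, 4.92 and 4.39 and J1 cells 4.31, 4.32 and 4.46. EOS3F-28 read 4.22, 4.44 and 4.56 and EOS3F-29 read 4.74, 4.71 and 4.57. The partial line was thus above every other array of the series for this gene, and MEFs came next with a mean of 4.69 ± 0.27 (SD, n = 3). Gata6 was higher in partial cells by 1.08 ± 0.14 than in J1 cells (2.11-fold, adjusted p = 1.65e-05), by 0.90 ± 0.12 than in the full lines (adjusted p = 3.03e-05) and by 0.75 ± 0.14 than in MEFs (adjusted p = 0.000561). After 2i conversion the arrays read 4.25, 4.47 and 4.56, a fall of 1.02 ± 0.14 on the log2 scale (adjusted p = 3.08e-05), and their range overlapped those of EOS3F-28 and J1.

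The other endoderm regulators, unlike Gata6, were not called in any comparison with the partial line. Gata4, a close relative of Gata6 that acts in the same lineage, read 4.23, 4.23 and 4.13 in partial cells and 4.20, 4.61 and 4.35 in J1 cells, with overlapping groups and a difference of -0.19 ± 0.13 (95% CI -0.46 to 0.08). Sox17, which follows Gata6 in primitive endoderm, read 3.57, 3.37 and 3.53 in partial cells against 3.44, 3.49 and 3.43 in J1 cells, a difference of 0.04 ± 0.12 (95% CI -0.22 to 0.29). Sox7, its relative in the SoxF family, read 3.68, 3.68 and 3.61 against 3.50, 3.84 and 3.69, a difference of -0.02 ± 0.12 (95% CI -0.27 to 0.24). None of these intervals reached a 2-fold difference in either direction. Against MEFs, Gata4 differed by 0.21 ± 0.13 (adjusted p = 0.283), with all partial arrays above all MEF arrays, and Sox17 by 0.25 ± 0.12 (adjusted p = 0.174). All partial arrays of Sox7 lay below all full-line arrays, at -0.19 ± 0.11 (adjusted p = 0.26). Sox17 values in all groups lay between 3.13 and 3.72, near or below the olfactory receptors' 95th percentiles, and Sox7 values in partial and J1 cells lay near them. A change in a weakly expressed transcript could thus have gone unseen.

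**Figure D1:**
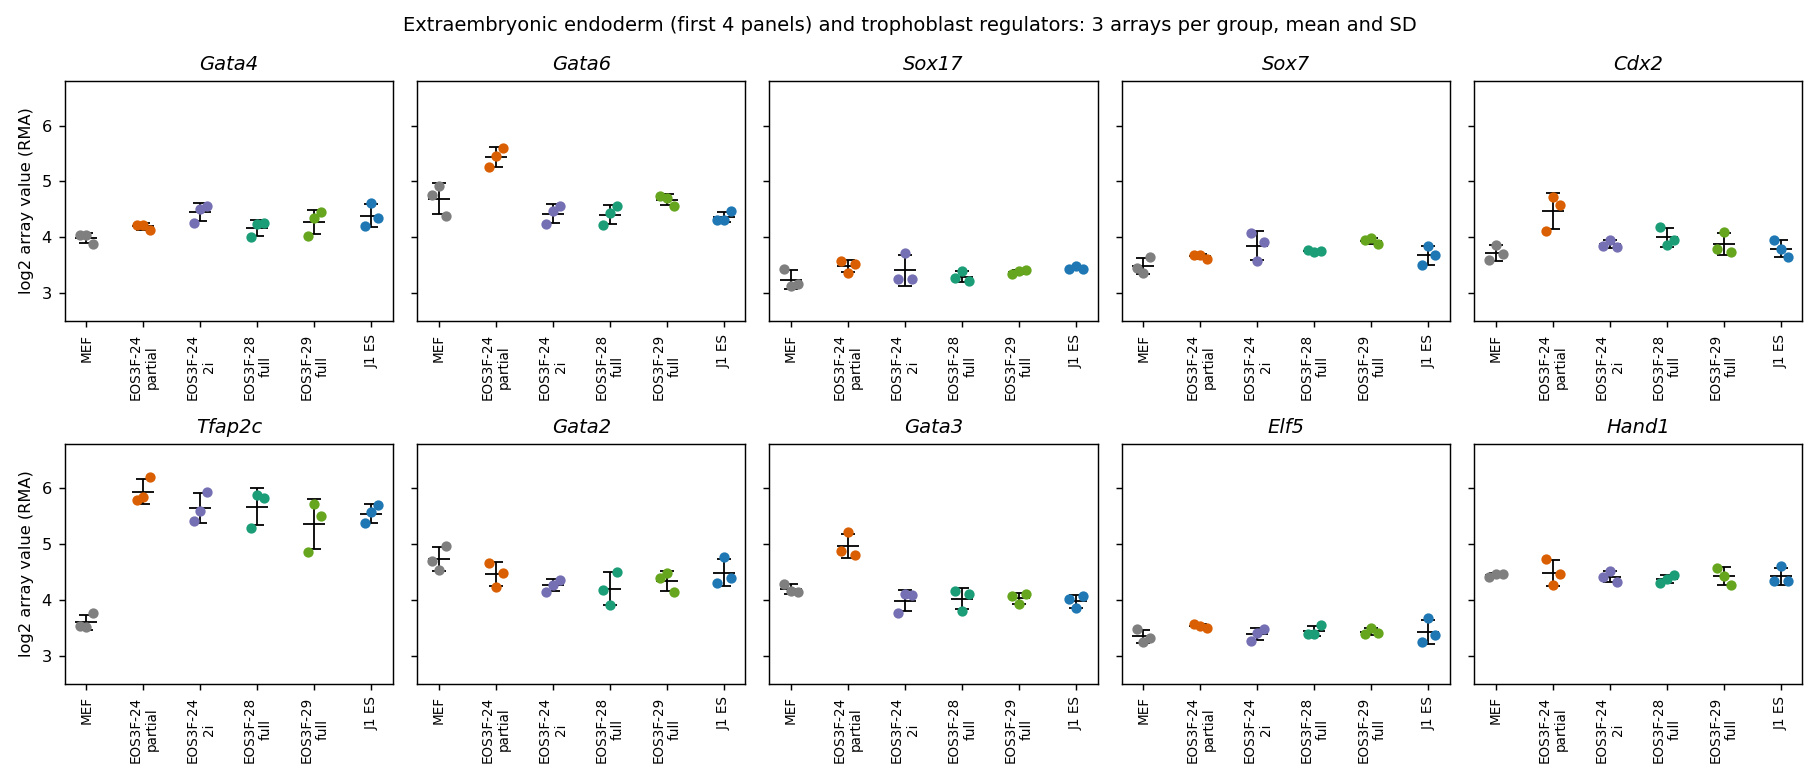
Each panel plots 1 gene, with log2 array value on the vertical axis and the 6 groups on the horizontal axis; points are arrays, and bars are the mean and SD of 3. Gata6 and Gata3 have all 3 partial arrays above every other array, Tfap2c is low in MEFs and high in the 5 other groups, and Hand1 group means span 0.10.

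Among the trophoblast regulators, Gata3 showed the same shape as Gata6. Gata3, which acts beside Cdx2 in the trophectoderm, read 4.89, 5.22 and 4.81 in partial cells, against 4.29, 4.16 and 4.14 in MEFs and 4.01, 3.85 and 4.06 in J1 cells. EOS3F-28 read 4.15, 3.80 and 4.11 and EOS3F-29 read 4.07, 3.92 and 4.11, so the partial arrays again lay above all others. The partial line exceeded J1 cells by 1.00 ± 0.13 (adjusted p = 1.78e-05), the full lines by 0.94 ± 0.11 (adjusted p = 8.17e-06) and MEFs by 0.77 ± 0.13 (adjusted p = 0.00022). The 2i converted arrays read 3.78, 4.10 and 4.09, a fall of 0.98 ± 0.13 (adjusted p = 2.07e-05). The lowest Gata3 arrays after 2i (3.78), in EOS3F-28 (3.80) and in J1 cells (3.85) lay just above the olfactory receptors' 95th percentiles (3.58 to 3.76). The differences from these groups are thus taken partly against dim signal.

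Cdx2, the homeodomain factor that sets trophectoderm fate, moved the same way but less cleanly. Its partial arrays read 4.11, 4.73 and 4.58, those of J1 cells 3.95, 3.79 and 3.64, and those of MEFs 3.60, 3.87 and 3.69. The J1 and MEF values lay near or just above the olfactory receptors' 95th percentiles (3.58 to 3.76), so differences from them start from dim signal. The lowest partial array, replicate 1, lay below the highest array of EOS3F-28 at 4.18, so partial and full groups overlapped. Cdx2 was higher in partial cells than in MEFs by 0.76 ± 0.15 (adjusted p = 0.001), than in J1 cells by 0.68 ± 0.15 (adjusted p = 0.00244) and than in the full lines by 0.54 ± 0.13 (adjusted p = 0.00586). After 2i it read 3.85, 3.96 and 3.83, a fall of 0.59 ± 0.15 (adjusted p = 0.00663). Without partial replicate 2, the highest array, the calls against the full lines (0.41, adjusted p = 0.0682) and after 2i (-0.47, adjusted p = 0.0508) were lost, and those against MEFs and J1 cells were kept.

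Promoter sequences of the RefSeq table (GRCm38.p6, 250 bases before to 50 after a transcript start) were matched by symbol for 4 of the 10 genes. Those of Cdx2 and Gata3 are shown because both genes rose in partial cells and fell in 2i, and 1 of the 2 promoters of Elf5 because that gene stayed dim throughout. Cdx2 is at chr5:147307200-147307499 on the minus strand, Gata3 at chr2:9878551-9878850 on the minus strand and Elf5 at chr2:103411848-103412147 on the plus strand. Capitals mark matches, on either strand, to the octamer ATGCAAAT read by Oct4, to the GATA motif (AGATAA, its form AGATAG that ends in G, its form TGATAA that starts with T, and TGATAG with both changes), to a Tcf/Lef motif (CTTTGAA and its form CTTTGAT that ends in T), to the AP-2 motif GCCNNNGGC, read by factors of the Tfap2 family, or to TATAAA.
Cdx2: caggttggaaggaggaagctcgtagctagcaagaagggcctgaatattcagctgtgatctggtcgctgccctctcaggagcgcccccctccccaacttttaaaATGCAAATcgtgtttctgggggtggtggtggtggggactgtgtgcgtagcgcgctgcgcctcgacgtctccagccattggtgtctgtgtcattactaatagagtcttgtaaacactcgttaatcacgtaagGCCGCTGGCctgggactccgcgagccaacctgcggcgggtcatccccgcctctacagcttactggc
Gata3: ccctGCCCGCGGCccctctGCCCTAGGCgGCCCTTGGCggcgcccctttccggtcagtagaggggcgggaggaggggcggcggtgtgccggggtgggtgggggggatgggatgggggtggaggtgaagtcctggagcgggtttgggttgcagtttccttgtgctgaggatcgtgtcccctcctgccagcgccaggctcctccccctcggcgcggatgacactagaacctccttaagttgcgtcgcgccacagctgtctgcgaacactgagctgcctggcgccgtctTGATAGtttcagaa
Elf5: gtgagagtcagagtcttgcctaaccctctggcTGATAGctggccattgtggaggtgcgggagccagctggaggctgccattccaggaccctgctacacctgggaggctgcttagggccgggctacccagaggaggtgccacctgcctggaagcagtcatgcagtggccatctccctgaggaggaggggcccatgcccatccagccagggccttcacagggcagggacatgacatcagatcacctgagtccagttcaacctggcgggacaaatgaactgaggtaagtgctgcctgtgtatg
The Cdx2 window holds the octamer once, starting 147 bases before the start, a match that 1.74% of 32851 promoters of this length carry. It also holds 1 AP-2 match (16.6% of promoters have one). Gata3 has 3 AP-2 matches near the 5′ end of its window and 1 GATA match (29.8% of promoters have one), and Elf5 has 1 GATA match. The Tcf/Lef motif, found in 8.65% of promoters, and TATAAA, in 13.6%, have no match in these 3 windows. The second Elf5 promoter, at chr2:103423818-103424117 on the plus strand, holds 1 Tcf/Lef match, no GATA match and 10 CpG dinucleotides. Cdx2 holds 18 and Gata3 22 CpG dinucleotides, more than 70.3% and 76.9% of promoters respectively, while the Elf5 window shown holds 3. The 2 windows of Gata2, the fourth gene matched, are not shown. They hold 32 and 29 CpG dinucleotides, more than 90.5% and 87.1% of promoters, and the second holds 1 AP-2 match. Gata2 was not called in any comparison with the partial line, so these contents do not separate the genes that rose. These matches describe the letters of the windows, and the arrays measured no binding.

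Tfap2c, which encodes AP-2γ of trophectoderm, primordial germ cells and ES cells, had a different pattern. It read 3.54, 3.51 and 3.76 in MEFs and 5.79, 5.84 and 6.20 in the partial line. J1 cells read 5.38, 5.57 and 5.70, EOS3F-28 read 5.29, 5.89 and 5.83, EOS3F-29 read 4.86, 5.72 and 5.50, and 2i converted cells read 5.41, 5.59 and 5.93. All arrays of the 5 other groups lay above all MEF arrays, and these 5 groups overlapped their neighbours in the order of the means. Tfap2c was higher than in MEFs by 2.34 ± 0.20 in partial cells (adjusted p = 2.2e-07), by 1.91 ± 0.18 in full lines (adjusted p = 2.48e-07) and by 1.95 ± 0.20 in J1 cells (adjusted p = 1.01e-06). The MEF values lay near the olfactory receptors' 95th percentiles of the same arrays (3.58 to 3.64), so these differences start from dim signal and are not exact folds. Tfap2c was not called between partial and J1 cells (0.39 ± 0.20, adjusted p = 0.197), though no arrays overlapped, and it was called there with the replicate number as a block (adjusted p = 0.0431). After 2i the difference was -0.30 ± 0.20 (95% CI -0.73 to 0.13).

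Gata2, Hand1 and Elf5 were not called in any comparison with the partial line. Gata2, a factor of trophoblast giant cells and blood stem cells, had its highest mean in MEFs (4.69, 4.53 and 4.97) and read 4.67, 4.24 and 4.48 in partial and 4.31, 4.77 and 4.39 in J1 cells. Hand1, a giant cell and heart factor, read 4.73, 4.26 and 4.46 in partial cells, 4.40, 4.47 and 4.46 in MEFs and 4.34, 4.60 and 4.33 in J1 cells, and every group overlapped its neighbours. Elf5, an Ets factor that sustains trophoblast stem cells, read 3.57, 3.53 and 3.50 in partial cells, 3.48, 3.25 and 3.32 in MEFs and 3.25, 3.67 and 3.38 in J1 cells, in the same dim range as Sox17. The 3 partial arrays of Elf5 lay above all MEF, EOS3F-29 and 2i arrays, over MEFs and 2i cells by 0.18 ± 0.11 (adjusted p = 0.266) and 0.15 ± 0.11 on average (adjusted p = 0.419), and overlapped J1 cells and EOS3F-28. Against J1 cells the partial line differed by -0.03 ± 0.16 for Gata2 (95% CI -0.37 to 0.32), by 0.06 ± 0.12 for Hand1 (95% CI -0.20 to 0.31) and by 0.10 ± 0.11 for Elf5 (95% CI -0.13 to 0.33). These intervals, too, stayed within a 2-fold difference.

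Counted over the 10 regulators, partial cells had 3 higher and 0 lower than J1 cells, where 13.3% of all genes were higher and 9.65% lower. Against the full lines 3 were higher and 0 lower, where 12.8% of all genes were higher and 5.78% lower. Against MEFs 4 were higher and 0 lower, where 13.7% of all genes were higher and 10% lower. These comparisons share the partial arrays, and the same Gata6, Gata3 and Cdx2 values enter each. The median difference of the 10 was 0.08 against J1 cells, 0.17 against full lines and 0.23 against MEFs, where the medians of all genes were -0.03, 0.01 and 0.04. Since 1 of the 10 genes is 10 percentage points, counts this small do not set the genes apart from the background.

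**Figure D2:**
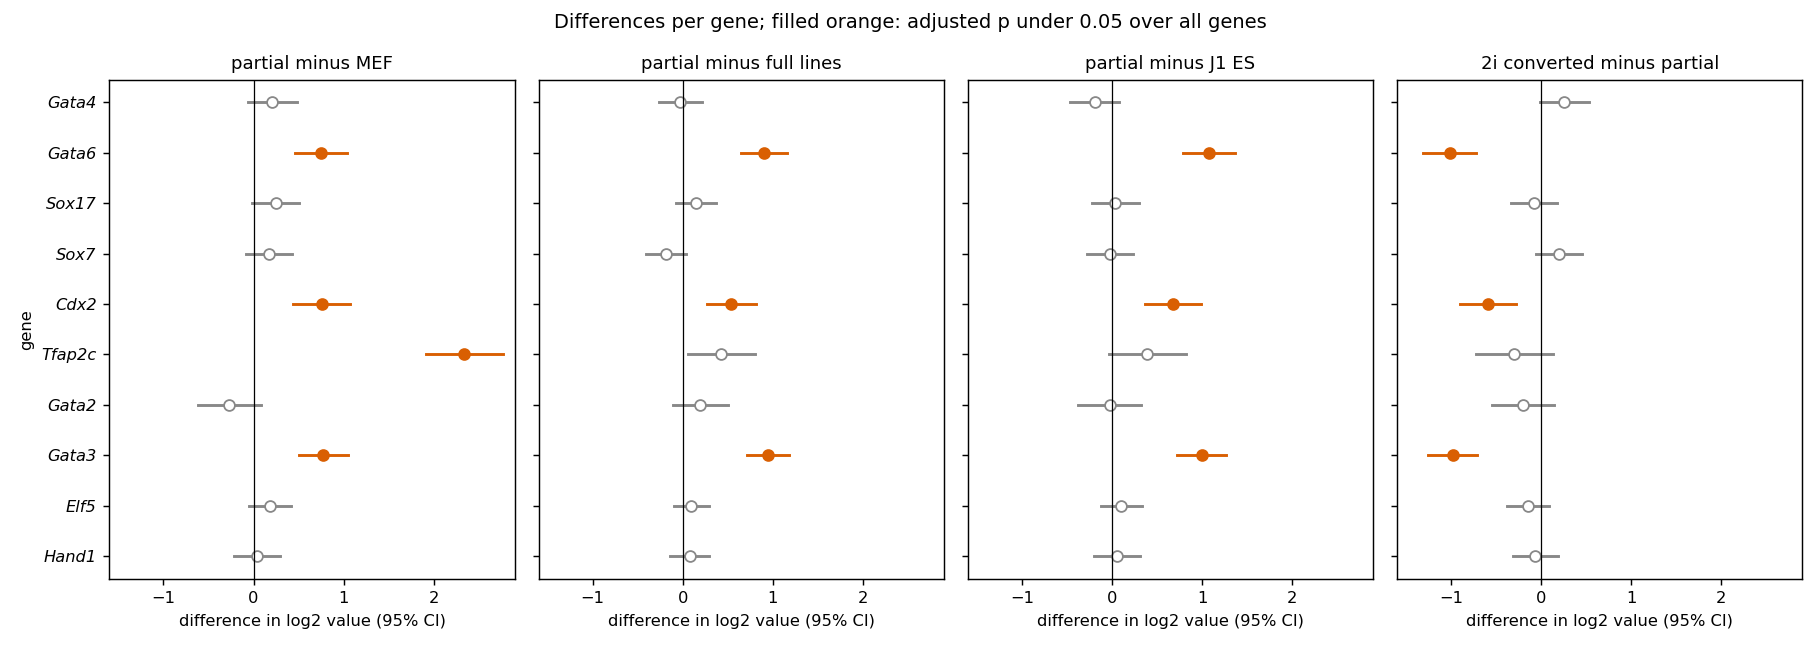
Points are differences in log2 value for each gene, 1 panel per comparison, and lines are 95% confidence intervals from limma; filled orange points have an adjusted p under 0.05 over all genes. Gata6, Cdx2 and Gata3 are right of 0 in the 3 panels for partial cells and left of 0 after 2i, and Tfap2c is called only in the panel against MEFs.

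After 2i conversion 0 of the 10 regulators rose and 3 fell, where 9.36% of all genes rose and 13% fell. The 3 that fell are Gata6, Gata3 and Cdx2, the ones that were higher in the partial line, and the comparisons share the partial arrays. Of the 7 not called, Gata4 lay at the upper end, at 0.25 ± 0.13 (adjusted p = 0.191), with no overlap between the groups, and Tfap2c at the lower end. Nanog, which opposes Gata6 in the inner cell mass, went from a mean of 4.57 to 9.17 in the same arrays, a rise of 4.60 ± 0.23 (adjusted p = 1.34e-10), and Pou5f1, which encodes Oct4 and is also carried by the retroviruses, fell by 1.32 ± 0.16 (adjusted p = 9.49e-06). Pou5f1 was higher in partial than in J1 cells by 1.43 ± 0.16 (adjusted p = 3.78e-06) and than in full lines by 1.36 ± 0.14 (adjusted p = 1.47e-06). Cdx2 was thus highest where Pou5f1 was, and a link between them was not tested.

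Between the pluripotent groups no regulator was called by limma. Converted cells against J1 cells had 0 of 10 called (1.72% of all genes), converted cells against full lines 0 of 10 (5.16%), full lines against J1 cells 0 of 10 (4.76%) and EOS3F-28 against EOS3F-29 0 of 10 (0.532%). In each of these 4 comparisons the count at an unadjusted p under 0.05 was also 0. Gata6 in converted cells differed from J1 cells by 0.06 ± 0.14 (95% CI -0.23 to 0.35), Gata3 by 0.01 ± 0.13 (95% CI -0.26 to 0.28) and Cdx2 by 0.09 ± 0.15 (95% CI -0.23 to 0.40). EOS3F-28 and EOS3F-29 did not overlap for Gata6, at -0.27 ± 0.14 (adjusted p = 0.51), or for Sox7, at -0.18 ± 0.12 (adjusted p = 0.636).

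Set against MEFs, full lines had 2 regulators higher, Tfap2c and Sox7, and 1 lower, Gata2, where 17.1% of all genes were higher and 17.8% lower. J1 cells had 2 higher, Tfap2c and Gata4, and 0 lower, where 20.6% of all genes were higher and 17.5% lower. Other scalings changed these splits: in J1 cells 1 was higher and 2 were lower, Gata6 and Gata3, both after cyclic loess and after centring on housekeeping genes, and in full lines 1 was higher and 3 were lower after that centring. Sox7 was higher in full lines by 0.36 ± 0.11 (adjusted p = 0.0133), Gata2 lower at -0.46 ± 0.14 (adjusted p = 0.0168), and Gata4 higher in J1 cells by 0.40 ± 0.13 (adjusted p = 0.0204). Each of these calls depended on single arrays or on 1 line. For Sox7 the adjusted p rose to 0.0531 when MEF replicate 1 was left out, to 0.0788 when MEF replicate 2 was, and to 0.12 when EOS3F-28 alone stood for the full lines. For Gata2 it was 0.122 when MEF replicate 3 was left out and 0.081 when EOS3F-29 alone stood for them. For Gata4 it was 0.116 when J1 replicate 2 was left out, 0.0798 when MEF replicate 3 was, and 0.0696 after cyclic loess. For MEFs the labels name no feeders or LIF, so culture and cell state cannot be told apart here.

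Relatives of the 10 factors were examined next, since a DNA-binding family can be filled by another member. Of 12 measured, Ehf, an epithelial Ets gene of the same subfamily as Elf5, had a mean of 7.25 ± 0.24 in partial cells (SD, n = 3). Its means were 3.26 in MEFs, 3.33 in J1 cells, 3.29 after 2i, 4.25 in EOS3F-28 and 3.31 in EOS3F-29. EOS3F-28 was thus above EOS3F-29, by 0.94 ± 0.16 (adjusted p = 0.0106). In partial cells the excess of Ehf over J1 cells was 3.93 ± 0.16 (adjusted p = 2.45e-11), and its change after 2i was -3.97 ± 0.16 (adjusted p = 1.7e-11). The MEF, J1 and 2i arrays of Ehf lay below the olfactory receptors' 95th percentiles of those arrays, so these differences are taken against dim signal and are not exact folds. Elf3, another gene of that subfamily and also dim in MEFs, was higher than in MEFs by 1.46 ± 0.36 in partial cells (adjusted p = 0.00563) and by 2.19 ± 0.36 in J1 cells (adjusted p = 9.7e-05). Tfap2a, the relative of Tfap2c in skin and neural crest, was higher in partial than in J1 cells by 0.41 ± 0.11 (adjusted p = 0.00924) and fell by 0.62 ± 0.11 after 2i (adjusted p = 0.000345). It was dim throughout: its J1 and 2i arrays lay below the olfactory receptors' 95th percentiles, and its partial arrays, at 3.73 to 3.82, just above them. Ehf and Tfap2a were the 2 of 12 relatives higher in partial than in J1 cells and the 2 that fell after 2i, and 0 went the opposite way in either comparison. These counts lie close to the shares of all genes, 13.3% higher than in J1 cells and 13% lower after 2i. Against MEFs 4 of the 12 were higher in partial cells and 0 lower, beside 13.7% and 10% of all genes. They were Ehf, Elf3, Tfap2a and the intestinal factor gene Cdx1, the last at 0.35 ± 0.12 (adjusted p = 0.0493). The remaining relatives, Gata1, Gata5, Sox18, Cdx1, Cdx4, Tfap2b, Tfap2d, Tfap2e and Hand2, were not called in these 2 comparisons.

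Further genes of the same lineages were called in both directions. Of 29 measured extraembryonic endoderm genes, 1 was higher and 5 were lower in partial than in J1 cells, beside 13.3% and 9.65% of all genes, with a median difference of -0.08 (-0.03 over all genes). The 1 that was higher was Dab2, an endocytic adaptor gene of primitive and visceral endoderm, at 7.31 in partial and 4.85 in J1 cells, a difference of 2.47 ± 0.21 (adjusted p = 1.92e-07). Its second probe set was at 0.22, so the difference rests on 1 probe set. Dab2 fell by 2.43 ± 0.21 after 2i (second probe set at -0.14). Apoe, a lipid carrier gene, was lower in partial than in J1 cells at -2.77 ± 0.23 (adjusted p = 9.53e-08), as was Sall4, a gene that primitive endoderm shares with pluripotent cells, at -2.37 ± 0.11 (adjusted p = 6.62e-11). Against MEFs 2 of the 29 were higher and 9 lower, beside 13.7% and 10% of all genes. The 2 were Sall4 and Cited1, so Dab2 was not called higher in partial cells than in MEFs. The falls were led by the basement membrane genes Nid1 (-2.63 ± 0.29) and Col4a1 (-2.36 ± 0.24), which fibroblasts also make. After 2i, 4 of the 29 rose and 1 fell, beside 9.36% and 13% of all genes.

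Of 27 measured trophoblast genes, 2 were higher and 7 lower in partial than in J1 cells, beside the same 13.3% and 9.65% of all genes, with a median of -0.13 (-0.03 over all genes). Higher were Lgals3, which encodes galectin-3, at 1.16 ± 0.13 (adjusted p = 5.06e-06) and the protease gene Furin at 0.73 ± 0.19 (adjusted p = 0.0108). Lower were, among others, the imprinted placental gene Peg10 at -2.67 ± 0.25 (adjusted p = 5.49e-07) and the P-cadherin gene Cdh3 at -2.02 ± 0.20 (adjusted p = 6.78e-07). Tead4, the factor upstream of Cdx2 in the trophectoderm, was higher in partial cells than in MEFs by 1.14 ± 0.15 (adjusted p = 2.02e-05) and than in full lines by 0.75 ± 0.13 (adjusted p = 0.000441). Krt8, a keratin gene of trophectoderm and other simple epithelia, was higher than in MEFs by 1.11 ± 0.24 (adjusted p = 0.00235). Neither Tead4 nor Krt8 was called higher in partial than in J1 cells. Against MEFs 8 of the 27 were higher and 6 lower in partial cells, beside 13.7% and 10% of all genes. Full lines had 11 higher and 5 lower than MEFs, beside 17.1% and 17.8% of all genes. J1 cells had 11 higher and 4 lower than MEFs, beside 20.6% and 17.5%. Against full lines, partial cells had 5 of the 27 higher and 6 lower, and of the 29 endoderm genes 1 higher and 4 lower, beside 12.8% and 5.78% of all genes. After 2i 7 of the 27 rose and 4 fell, beside 9.36% and 13% of all genes, with Peg10 up by 3.94 ± 0.25, Furin at -0.87 ± 0.19 and Lgals3 at -0.77 ± 0.13.

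**Figure D3:**
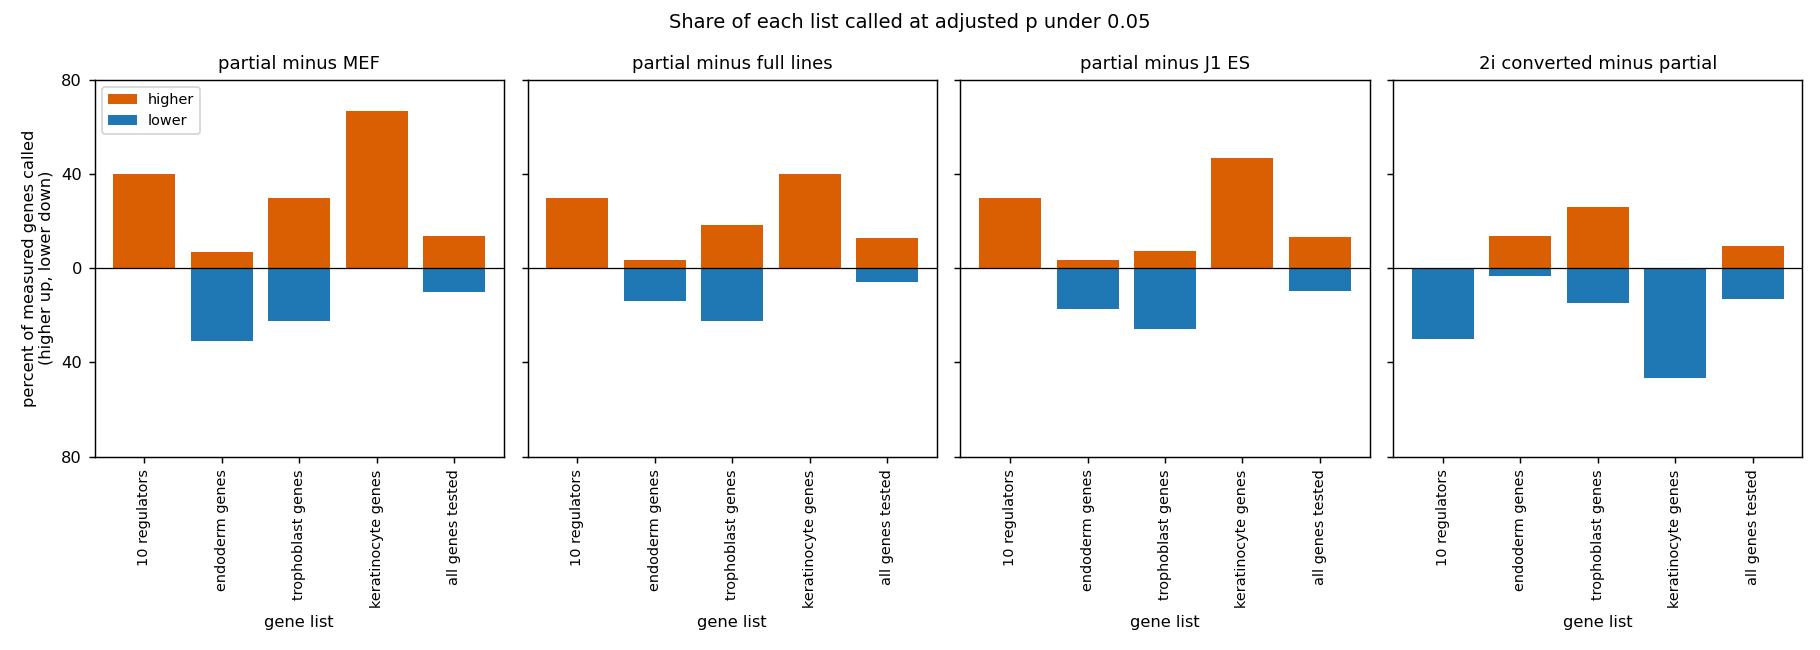
Bars give the percent of measured genes in each list called higher (orange, up) or lower (blue, down) by limma at an adjusted p under 0.05, with all 19937 genes in the last bar, for 4 comparisons. The endoderm and trophoblast lists have more lower than higher calls in partial against J1 cells (5 against 1 and 7 against 2). The keratinocyte list has 7 higher and 0 lower there and 7 lower after 2i. All lists were chosen with earlier results of these data known, and the 4 comparisons share the partial arrays.

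Markers of other cell types that use these factors were counted in the same fits. Over all genes 13.3% were higher and 9.65% lower in partial than in J1 cells, and 9.36% rose and 13% fell after 2i. Of 15 keratinocyte genes 7 were higher and 0 lower in partial than in J1 cells, and 0 rose and 7 fell after 2i, with the keratin gene Krt13 at 4.98 ± 0.24 and -5.16 ± 0.24. The marker lists were chosen with earlier results of these data known, and both comparisons share the partial arrays. Ehf, named above among the relatives, is also on the keratinocyte list. The mean level of this list ran from 5.22 to 5.71 over partial arrays, 4.05 to 4.22 over J1 arrays, 3.93 to 4.06 after 2i, 4.57 to 4.68 in EOS3F-28, 4.03 to 4.23 in EOS3F-29 and 3.63 to 4.69 in MEFs. Like Gata3, Gata6 and Cdx2 it had its highest mean in the partial line. It was higher in EOS3F-28 than in EOS3F-29. There Gata6 differed by -0.27 (adjusted p = 0.51 by limma), Gata3 by -0.01 and Cdx2 by 0.12 (adjusted p = 0.836), none of them called. The mean of the list was lowest in MEFs, as was that of Cdx2, whereas MEFs came next after partial cells for Gata6 and Gata3. The MEF arrays of the list spanned those after 2i, so its lowest place is not firm. The part of this list in the values of the 3 regulators was not tested. Of 15 blood and endothelial genes 3 were higher and 1 was lower than in J1 cells, counts close to the shares of all genes. The largest of these differences were in the angiopoietin receptor gene Tek at 1.99 ± 0.17 and the blood factor gene Runx1 at 1.55 ± 0.27. Against MEFs, Tek was also higher in partial cells, at 2.73 ± 0.17, but Runx1 was lower, at -1.05 ± 0.27 (adjusted p = 0.00844 by limma). The endothelial gene Pecam1 was lower at -1.66 ± 0.34. Of 10 heart and mesoderm genes 0 were called against J1 cells, and of 8 germ cell genes, among which Tfap2c acts, 0 were higher and 8 lower. Of 24 fibroblast and feeder genes 0 were called in partial against J1 cells and 0 after 2i, but their medians were 0.40 and -0.37, and their mean level varied from 6.63 to 7.82 among partial and from 6.22 to 7.28 among J1 arrays. The list averaged 8.88 to 9.07 in MEF arrays, and its part in the values of the regulators was not tested.

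Patterns were compared over the 18 arrays, which share their groups, so correlations describe the group shape. Gata6 correlated with Gata3 at r = 0.87 and with Cdx2 at 0.69, and Gata3 with Cdx2 at 0.74. Among 3519 genes whose group means span at least 1, the closest to Gata6 were the kinesin gene Kif13a (r = 0.94), Crybg3 and Hdgfl3 (both r = 0.92), and the closest to Tfap2c were Ezr, which encodes the cortical protein ezrin (0.97), Pou5f1 (0.96) and Ctnnal1 (0.96). Gata3 spanned 0.997 and Cdx2 0.755, short of that limit, and their closest genes, looked up after their values were seen, were the urothelial gene Upk1b (r = 0.93), the claudin gene Cldn11 (0.92) and Baiap2 (0.92) for Gata3 and Spata13 (0.90), Nt5c3 (0.89) and Cda (0.89) for Cdx2. Upk1b had means of 6.11 in partial cells, 4.36 in MEFs and 3.77 in J1 cells.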

How the data were processed

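RNA was extracted with an RNeasy kit and labelled with biotin as whole-transcript sense target, per the labels' protocols. The authors deposited 1 log2 value per probe set and array. RMA is named in the submitters' processing notes, with neither version nor build, each not given in the sources used here. RMA sets arrays to a like distribution and compresses differences near background. Of 34760 probe sets, 21640 had 1 gene symbol in the platform annotation, 1321 several and 11799 were not listed; each of 19937 genes was read by its probe set with the highest mean. With limma 3.58.1 (R 4.3.3), all 18 arrays entered 1 fit with a mean for each group, and 10 comparisons were tested as contrasts with Benjamini-Hochberg adjustment over all genes; full lines are the mean of both. Intervals are 95% confidence intervals of the difference. The model was tested on simulated data.

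The regulators, relatives, lineage, keratinocyte, blood and endothelial, heart, germ cell, fibroblast, pluripotency and housekeeping lists (186 genes, 178 measured, 2 on more than 1 list) were chosen with earlier results of these data known. Of the housekeeping list, 12 genes were measured and served for centring; 2 were higher and 3 lower in partial than in J1 cells. Named genes are all regulators, in the 4 comparisons with partial cells each list's 2 strongest called rises and 2 strongest called falls, of which only some are printed, relatives called with at least a 2-fold difference, the 3 genes most correlated with a regulator whose group means span at least 1, Pou5f1 and Nanog; Cdx1 was named after its values were seen.

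Equal replicate numbers were checked for pairing by the correlation, across genes, of what each array departs from its group. It was above 0.1 for all 3 numbers between partial and J1 arrays (0.208, 0.242 and 0.223), partial and EOS3F-29 arrays (0.387, 0.296 and 0.136) and 2i and partial arrays (0.383, 0.140 and 0.122). The same held for 2i and J1 arrays (0.563, 0.454 and 0.150) and both full lines (0.542, 0.639 and 0.149). Pairing between these groups rests on these correlations alone. The alternatives were other scalings, filters, probe set rules, variance models, array sets and the replicate block.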

Additional observations from a re-analysis of the deposited data

Results flagged for a closer look

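The difference from MEFs was not the same in the partial and the full lines for 3 regulators. For Gata6 it was 0.75 in partial cells and -0.15 in full lines, a difference between the 2 of 0.90 (adjusted p = 3.03e-05 by limma). For Gata3 it was 0.77 and -0.17, a difference of 0.94 (adjusted p = 8.17e-06). For Cdx2 it was 0.76 and 0.22, a difference of 0.54 (adjusted p = 0.00586). The MEF arrays cancel in this test, which equals partial against full cells. Groups of 3 arrays were too small to look for single outlying arrays.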

How the results depend on the processing

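Over 160 recomputed counts of called regulators, 159 stayed within 1.5 times the reported count with both directions added, although the split changed under other scalings against MEFs. The exception was J1 cells against MEFs, where leaving out 1 array gave 1 to 2 called, the 1 without J1 replicate 2, where Gata4 was lost. A limit of 1.5 times is loose for counts this small. Leaving out 1 array gave 2 to 4 called both for full lines against MEFs and for partial against full lines, all within it. Of 1560 recomputed single differences, 1537 kept their side of the threshold, 12 lost a call, 11 gained one and 0 called ones reversed; 98 uncalled ones changed sign. Gata6 and Gata3 stayed called against J1 cells, full lines and MEFs and after 2i in every alternative, with adjusted p of at most 0.00929. Cdx2 lost calls only without partial replicate 2, against full lines and after 2i. With the replicate number as a block, Tfap2c was also called between partial and full lines (0.43, adjusted p = 0.0144), as it was without EOS3F-29 replicate 2 (0.0465). The block changed no call other than this and Tfap2c against J1 cells. Partial arrays passed the pairing check with EOS3F-29 (0.387, 0.296 and 0.136) but not with EOS3F-28 (0.380, 0.342 and -0.069). Centring on housekeeping genes moved the median of all genes by -0.16 to -0.20 in the 6 comparisons with MEFs or converted cells; it ended the calls of Sox7 in full lines (adjusted p = 0.339) and of Gata4 in J1 cells (0.374), and Gata6 and Gata3 were then called lower in full lines (-0.33 and -0.35) and in J1 cells (-0.53 and -0.43) than in MEFs, in J1 cells also after cyclic loess (-0.40 and -0.35). Without MEF replicate 3 Gata6 was also called lower in J1 cells (-0.48), and without EOS3F-29 replicate 1 Gata4 was called higher in full lines (0.30). A filter on dim genes left out Sox17, Sox7, Cdx2 and Elf5, so that they had no value there. Signal near background limits what can be said of Sox17, Sox7, Elf5, Tfap2c in MEFs, and Cdx2 in MEFs and J1 cells. It also bears on the lowest Gata3 arrays after 2i, in EOS3F-28 and in J1 cells.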
